A study of Homo sapiens with 12 samples.

Results

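The genes described here are 10 feedback inhibitors of growth factor signalling, the dual-specificity phosphatases *DUSP1*, *DUSP4*, *DUSP5*, *DUSP6*, *DUSP7* and *DUSP10*, the Sprouty genes *SPRY2* and *SPRY4*, and the Sprouty-related genes *SPRED1* and *SPRED2*. They were chosen by symbol, among 18417 genes that had a feature with exactly 1 gene symbol on the array, and each of the 10 had a single such feature. Expression was profiled in Calu-6 cells, an established human lung cancer cell line, on 12 Affymetrix Human Gene 1.0 ST arrays. The 4 groups of 3 biological replicates were siLAPTM4B without serum (0% FBS), siControl without serum, siLAPTM4B with 10% fetal bovine serum (FBS) and siControl with 10% FBS. siLAPTM4B is a SMARTpool of siRNAs against *LAPTM4B*, a lysosomal transmembrane protein, and siControl is a scrambled siRNA pool. All groups grew in DMEM/F12 and were transfected with Lipofectamine RNAiMAX, medium was changed one day later, and RNA was taken 48 h after that change and 72 h after transfection. Replicates were independent transfections of the 1 line, so the results describe that line only.

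In the RAS-ERK pathway, growth factor receptors load RAS with GTP, and RAF and MEK then switch on the kinase ERK. ERK in turn raises transcription of its own inhibitors. DUSP proteins remove the activating phosphates from MAP kinases in the nucleus or the cytoplasm, whereas Sprouty and SPRED proteins act upstream, between the receptor and RAF, and their transcripts are widely read as a record of ERK activity. The comparisons ask whether the transcripts of these inhibitors changed after *LAPTM4B* knockdown or with the removal of serum, and whether the knockdown effect depended on serum. Neither ERK phosphorylation nor protein was measured on these arrays, and in RNA of a whole culture a change in every cell and a change in the share of cells cannot be told apart.

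The values are log2 signals after robust multi-array averaging (RMA), so a difference of 1 is a doubling. *LAPTM4B* itself was 10.49 ± 0.045 in siLAPTM4B cells and 11.91 ± 0.037 in siControl cells without serum, and 10.01 ± 0.024 in siLAPTM4B cells and 11.77 ± 0.024 in siControl cells with 10% FBS (SD, n = 3 each). The log2 fold changes of knockdown were -1.42 without serum (limma's adjusted p = 8.6e-06) and -1.75 with 10% FBS (6.4e-07). Array medians lay between 7.71 and 7.76. The epithelial keratins *KRT8* and *KRT18* had signals of 12.76 to 12.99 and 12.14 to 12.35, and the cadherin *CDH1* had 6.10 to 6.29 and *EPCAM* 8.20 to 9.89. Among leukocyte markers *PTPRC* had at most 5.31 and *CD68* 9.94 to 10.69, and among fibroblast markers *DCN* had at most 5.39, *COL1A1* 8.47 to 8.72, *LUM* 6.51 to 9.14, *PDGFRB* 7.60 to 9.31 and *PDGFRA* 8.20 to 9.01, so neither list was uniformly dim. None of the 10 inhibitors averaged below the lower quartile of all features, 6.17, and *DUSP10*, with a mean of 7.22, was the only one below the array medians. The precision of every value is limited by the 3 arrays per group.

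**Figure D1:**
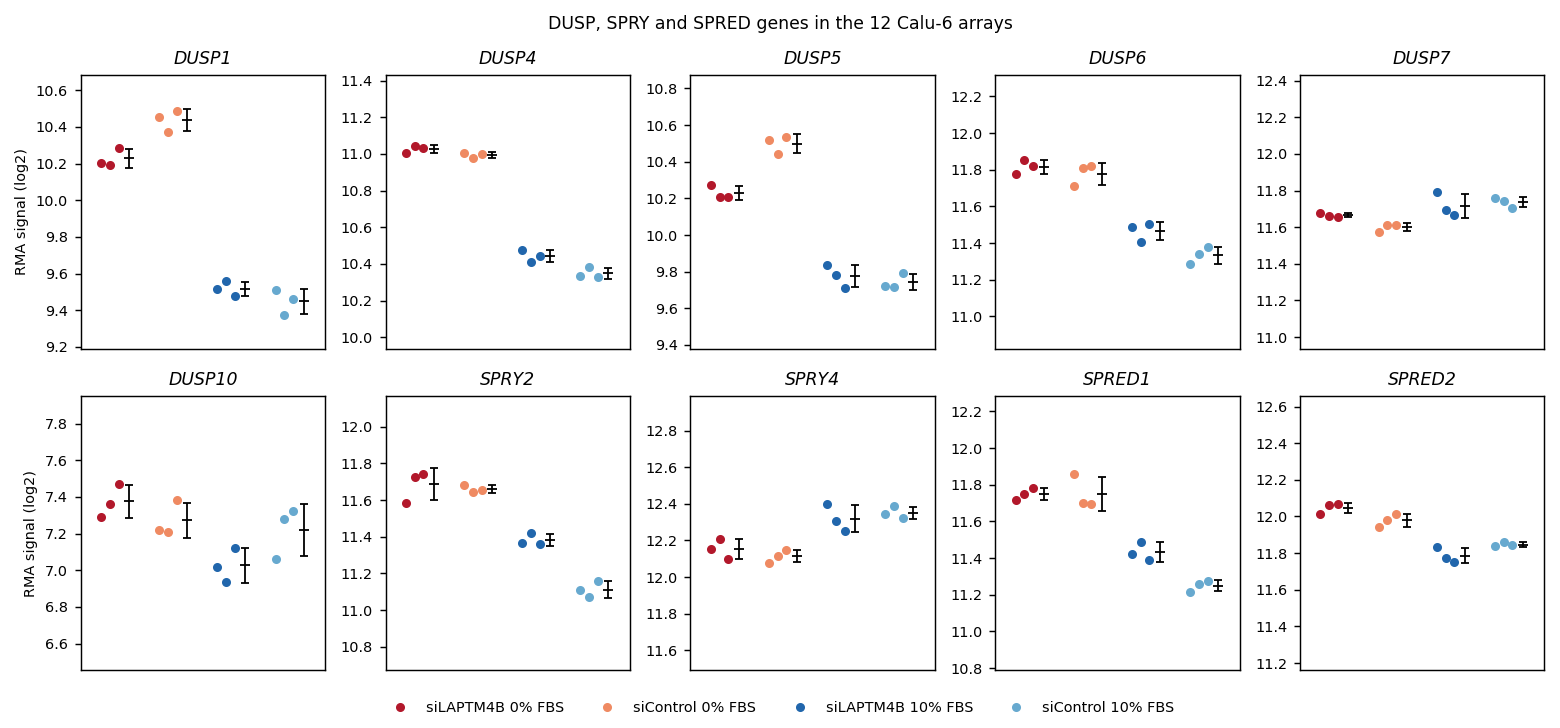
Log2 signal of each of the 10 inhibitors (one panel per gene, vertical axis in log2 units, of equal length in every panel) on each of the 12 arrays, with points for arrays, a dash for each group mean and error bars of 1 SD (n = 3), grouped by siRNA and serum. *DUSP1*, *DUSP4*, *DUSP5*, *DUSP6*, *SPRY2*, *SPRED1* and *SPRED2* are higher without serum under both siRNAs, and *SPRY4* is lower.

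Serum withdrawal moved most of the family, and mainly upward. In siLAPTM4B cells, 8 of the 10 inhibitors rose without serum and 0 fell, with *DUSP7* and *SPRY4* not called. In siControl cells, 7 rose, 2 fell and *DUSP10* was not called. Among all 19460 features tested, 20.7% were called in siLAPTM4B cells (9.74% higher and 11% lower) and 26% in siControl cells (13.2% higher and 12.9% lower). The median log2 fold change of the 10 was 0.33 in siLAPTM4B cells, against -0.0058 over all features, and 0.47 in siControl cells, against -0.015 over all features. A call is an adjusted p under 0.05 from limma with Benjamini-Hochberg adjustment over all 19460 features.

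The nuclear phosphatases had the widest range. *DUSP1* is an immediate early gene whose product acts on ERK, JNK and p38. Its log2 signals were 10.20, 10.19 and 10.29 in siLAPTM4B cells without serum, 10.46, 10.37 and 10.49 in siControl cells without serum, 9.52, 9.56 and 9.48 in siLAPTM4B cells with 10% FBS, and 9.51, 9.38 and 9.46 in siControl cells with 10% FBS. All serum-free arrays lay above all arrays with serum, and within the serum-free arrays the siLAPTM4B ones lay below the siControl ones. Serum withdrawal raised *DUSP1* by a log2 fold change of 0.71 in siLAPTM4B cells (standard error 0.051, adjusted p = 1.2e-05), a ratio of 1.64, and of 0.99 in siControl cells (0.052, adjusted p = 5.2e-06), a ratio of 1.98.

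*DUSP5* encodes a nuclear phosphatase that is selective for ERK. Its log2 signals were 10.27, 10.21 and 10.21 in siLAPTM4B cells without serum, 10.52, 10.44 and 10.54 in siControl cells without serum, 9.84, 9.78 and 9.71 in siLAPTM4B cells with 10% FBS, and 9.72, 9.72 and 9.79 in siControl cells with 10% FBS. The order of the groups was that of *DUSP1*, and as for *DUSP1* only the neighbouring groups with 10% FBS overlapped. The log2 fold change of serum withdrawal was 0.45 in siLAPTM4B cells (standard error 0.053, adjusted p = 0.00026) and 0.75 in siControl cells (0.045, adjusted p = 1.1e-05).

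*DUSP4*, a nuclear phosphatase of ERK, JNK and p38, had log2 signals of 11.00, 11.04 and 11.03 in siLAPTM4B cells without serum, 11.01, 10.98 and 11.00 in siControl cells without serum, 10.48, 10.41 and 10.44 in siLAPTM4B cells with 10% FBS, and 10.33, 10.38 and 10.33 in siControl cells with 10% FBS. Here the serum-free groups overlapped, and the groups with 10% FBS were apart, siLAPTM4B above siControl. Serum withdrawal gave log2 fold changes of 0.58 in siLAPTM4B cells (standard error 0.047, adjusted p = 2.5e-05) and 0.64 in siControl cells (0.039, adjusted p = 1.1e-05).

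The cytoplasmic phosphatases went different ways. *DUSP6*, which is specific for ERK and a standard readout of its activity, averaged 11.82 ± 0.039 in siLAPTM4B cells without serum, 11.78 ± 0.061 in siControl cells without serum, 11.47 ± 0.050 in siLAPTM4B cells with 10% FBS and 11.33 ± 0.047 in siControl cells with 10% FBS (SD, n = 3 each). It rose on serum withdrawal by 0.35 in siLAPTM4B cells (adjusted p = 0.0011) and 0.45 in siControl cells (adjusted p = 0.00028). *DUSP7*, its cytoplasmic relative, averaged 11.66 ± 0.012, 11.60 ± 0.022, 11.72 ± 0.066 and 11.74 ± 0.028 in the same order of groups. Its log2 fold change of serum withdrawal was -0.05 in siLAPTM4B cells (95% interval -0.17 to 0.07, adjusted p = 0.58) and -0.14 in siControl cells (adjusted p = 0.036). The call in siControl cells was lost when any 1 of the 6 arrays was left out (adjusted p 0.054 to 0.11), and its range of group means, 0.14, was the narrowest of the 10.

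*DUSP10* encodes a phosphatase that prefers JNK and p38 to ERK. Its log2 signals were 7.29, 7.36 and 7.47 in siLAPTM4B cells without serum, 7.22, 7.21 and 7.38 in siControl cells without serum, 7.02, 6.94 and 7.12 in siLAPTM4B cells with 10% FBS, and 7.06, 7.28 and 7.32 in siControl cells with 10% FBS. Neighbouring groups overlapped throughout, and its mean SD within groups, 0.11, was the highest of the 10. It rose on serum withdrawal in siLAPTM4B cells (log2 fold change 0.35, adjusted p = 0.0050), and in siControl cells the log2 fold change was 0.05 (95% interval -0.13 to 0.23, adjusted p = 0.69). The difference between these effects was 0.30 (95% interval 0.06 to 0.53, adjusted p = 0.35), so it was not shown that serum withdrawal acted differently under the 2 siRNAs.

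Among the inhibitors that act upstream of ERK, 3 of 4 rose. *SPRY2*, which restrains RAS activation by receptor tyrosine kinases, had log2 signals of 11.59, 11.73 and 11.74 in siLAPTM4B cells without serum, 11.68, 11.64 and 11.65 in siControl cells without serum, 11.37, 11.42 and 11.36 in siLAPTM4B cells with 10% FBS, and 11.11, 11.07 and 11.16 in siControl cells with 10% FBS. *SPRED1*, which carries the RAS inactivator neurofibromin to the membrane, had log2 signals of 11.72, 11.75 and 11.78 in siLAPTM4B cells without serum, 11.86, 11.70 and 11.69 in siControl cells without serum, 11.42, 11.49 and 11.39 in siLAPTM4B cells with 10% FBS, and 11.22, 11.26 and 11.27 in siControl cells with 10% FBS. For both genes the serum-free groups overlapped, the siLAPTM4B arrays with serum came next and the siControl arrays with serum were lowest, with no overlap between the last groups. The log2 fold change of serum withdrawal was 0.30 for *SPRY2* (adjusted p = 0.0046) and 0.32 for *SPRED1* (adjusted p = 0.0019) in siLAPTM4B cells. In siControl cells it was 0.55 for *SPRY2* (adjusted p = 3.9e-05) and 0.50 for *SPRED1* (adjusted p = 0.00027).

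*SPRED2*, which like *SPRED1* binds neurofibromin, averaged 12.05 ± 0.029 in siLAPTM4B cells without serum, 11.98 ± 0.036 in siControl cells without serum, 11.79 ± 0.043 in siLAPTM4B cells with 10% FBS and 11.85 ± 0.012 in siControl cells with 10% FBS (SD, n = 3 each). It rose on serum withdrawal by 0.26 in siLAPTM4B cells (adjusted p = 0.0047) and by 0.13 in siControl cells (adjusted p = 0.040), the second call being lost without any 1 of 5 of the 6 arrays (adjusted p 0.091 to 0.13). *SPRY4*, the other Sprouty gene here, moved the opposite way, with 12.15, 12.21 and 12.10 in siLAPTM4B cells without serum, 12.08, 12.12 and 12.15 in siControl cells without serum, 12.40, 12.30 and 12.25 in siLAPTM4B cells with 10% FBS, and 12.34, 12.39 and 12.32 in siControl cells with 10% FBS. Every serum-free array of *SPRY4* lay below every array with serum. The log2 fold change of serum withdrawal was -0.17 in siLAPTM4B cells (95% interval -0.30 to -0.04, adjusted p = 0.070) and -0.24 in siControl cells (standard error 0.041, adjusted p = 0.0038), where the fall was called.

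**Figure D2:**
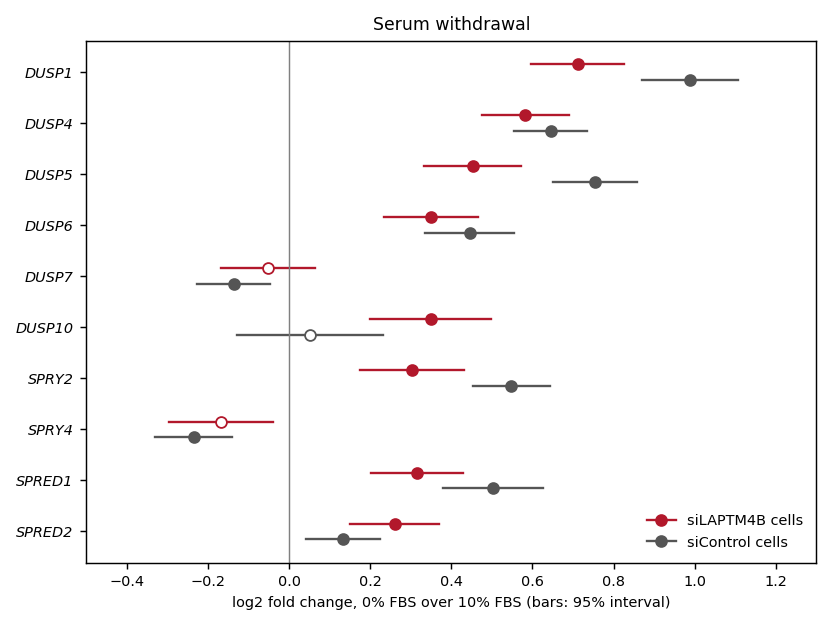
Log2 fold change of serum withdrawal (0% FBS minus 10% FBS, horizontal axis in log2 units) with its 95% interval for each inhibitor in siLAPTM4B cells and in siControl cells, filled where called at an adjusted p under 0.05 and open where not. *DUSP1* reaches 0.71 in siLAPTM4B cells and 0.99 in siControl cells, while *DUSP7* and *SPRY4* lie left of 0.

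The arrays of the serum-free and serum groups did not overlap for 9 of the 10 inhibitors in siLAPTM4B cells (all but *DUSP7*) and for 9 in siControl cells (all but *DUSP10*). Over all features that share was 36% in siLAPTM4B cells and 41.1% in siControl cells. With 3 arrays against 3, an exact two-sided permutation test of 1 gene cannot give a p under 0.1.

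Promoter sequence is shown for *DUSP1*, the gene with the largest change of the 10 on serum withdrawal, and for the Sprouty genes, which moved in opposite directions in siControl cells. The transcription factor CREB binds the cyclic AMP response element (CRE, TGACGTCA) and, less tightly, its short form TGACG, which lies within it. Windows of 300 bases, 250 before to 50 after the annotated start, were available from RefSeq (GRCh38.p14) for 8 of the 10 genes, *DUSP4* and *DUSP5* being the others. *SPRY2* had 3 promoter entries and *DUSP10* and *SPRED2* had 2 each, and only a single window per gene was searched. Both strands were searched for these sites, for the AP-1 site (TGACTCA or TGAGTCA), the ETS site CCGGAAGT, the serum response factor's CArG box and the TATA box TATAAA. Capitals mark CRE, short CRE and TATA matches, each run is 5′ to 3′ on the gene's minus strand, and CGTCA is the short CRE read from the other strand.
DUSP1: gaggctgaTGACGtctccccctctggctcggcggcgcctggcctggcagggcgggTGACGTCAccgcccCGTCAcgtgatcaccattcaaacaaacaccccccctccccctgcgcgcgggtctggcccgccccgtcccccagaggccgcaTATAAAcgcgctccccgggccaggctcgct
SPRY2: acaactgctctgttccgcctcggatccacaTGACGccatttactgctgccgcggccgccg
SPRY4: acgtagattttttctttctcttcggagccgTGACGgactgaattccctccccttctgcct
The *DUSP1* run is chr5:172771196-172771375, the 180 bases before the start of a gene that spans chr5:172768096-172771195. The *SPRY2* run is chr13:80341287-80341346, ending 161 bases before the start, and the *SPRY4* run is chr5:142324286-142324345, ending 39 bases before the start that the promoter table uses, 142324247. That start lies inside the annotated *SPRY4* gene (chr5:142310430-142325021), so this run is within the gene's span.

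In these windows *DUSP1* held a full CRE that starts 125 bases before the gene's start, and a TATA box 30 bases before it. A full CRE was found in 1.98% of the 27305 RefSeq promoters and in 1 of the 8 inhibitors, and a TATA box in 12.0% of promoters and 1 of the 8. The short CRE stood in 25% of promoters and in 4 of the 8, *DUSP1*, *SPRY2*, *SPRY4* and *SPRED2*. It was thus found both in genes that rose on serum withdrawal and in *SPRY4*, which fell in siControl cells. The AP-1 site (4.92% of promoters), the ETS site (4.44%) and the CArG box (1.29%) matched in 0 of the 8 windows. A match is a description of letters, and binding was not measured.

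*LAPTM4B* knockdown moved 1 of the 10 inhibitors in each medium. Without serum, *DUSP5* was lower and 9 were not called (2.33% of all features were called, 0.591% higher and 1.74% lower). With 10% FBS, *SPRY2* was higher and 9 were not called (4.08% of features were called, 1.99% higher and 2.09% lower). A count of 1 is the smallest above 0 that 10 genes can give. At an unadjusted p under 0.01, the methods' threshold, 2 of the 10 passed in each medium, against 6.63% of features without serum and 8.09% with 10% FBS. At an unadjusted p under 0.05, 2 passed without serum and 4 with 10% FBS, against 15.1% and 18.2% of features. The median log2 fold change of the 10 was 0.035 without serum and 0.050 with 10% FBS, against 0.0068 and 0.0043 over all features.

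Without serum, *DUSP5* had a log2 fold change of knockdown of -0.27 (standard error 0.047, 95% interval -0.38 to -0.16, adjusted p = 0.025), a ratio of 0.83. The call was lost without any 1 of 5 of the 6 arrays (adjusted p 0.056 to 0.12, all but siLAPTM4B replicate 1). *DUSP1* had -0.21 (0.050, 95% interval -0.32 to -0.10, adjusted p = 0.077). The arrays of both siRNAs were apart for these genes and for *DUSP7*, whose log2 fold change was 0.06 (95% interval -0.03 to 0.16, adjusted p = 0.53), and 21.3% of all features had arrays that did not overlap. For the other 7 the arrays overlapped and the 95% intervals together ran from -0.13 to 0.25.

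With 10% FBS, *SPRY2* had a log2 fold change of knockdown of 0.27 (standard error 0.047, 95% interval 0.16 to 0.38, adjusted p = 0.018), a ratio of 1.21. The call was lost without siLAPTM4B replicate 2 or 3 or siControl replicate 1 or 2 (adjusted p 0.050 to 0.10). *SPRED1* had 0.18 (0.048, 95% interval 0.08 to 0.29, adjusted p = 0.076), *DUSP6* 0.13 (95% interval 0.02 to 0.24, adjusted p = 0.20) and *DUSP10* -0.19 (95% interval -0.37 to -0.02, adjusted p = 0.23). The arrays of both siRNAs were apart for 5 genes, *DUSP4*, *DUSP6*, *SPRY2* and *SPRED1* with siLAPTM4B above siControl and *SPRED2* with siLAPTM4B below, against 24.5% of features. *DUSP1* and *DUSP5* had 0.07 (95% interval -0.05 to 0.19) and 0.03 (95% interval -0.08 to 0.15) here.

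**Figure D3:**
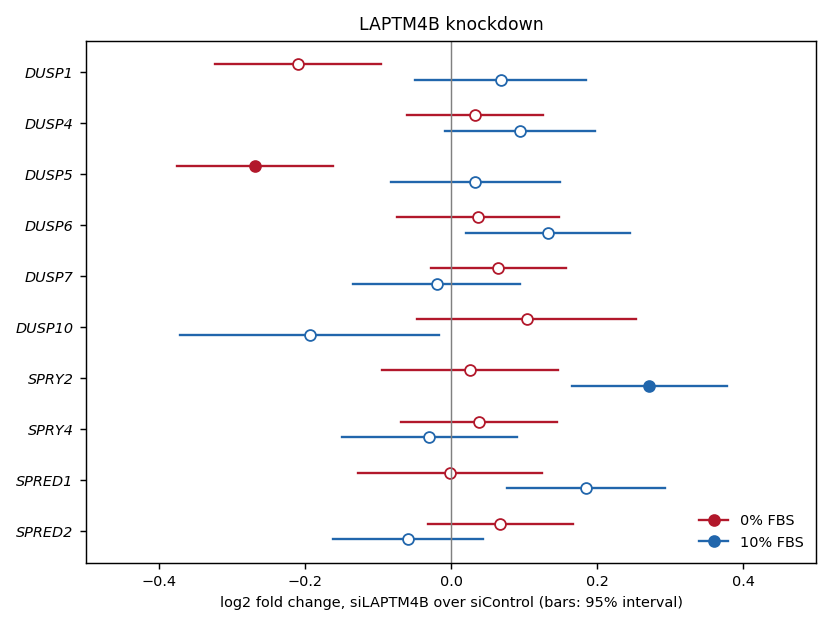
Log2 fold change of *LAPTM4B* knockdown (siLAPTM4B minus siControl, horizontal axis in log2 units) with its 95% interval for each inhibitor without serum and with 10% FBS, filled where called and open where not. The filled points are *DUSP5* without serum at -0.27 and *SPRY2* with 10% FBS at 0.27.

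The dependence of knockdown on serum was tested as the log2 fold change without serum minus that with 10% FBS, over all 12 arrays. With limma 0 of the 10 inhibitors were called, against 0.262% of features, 6 had an unadjusted p under 0.05, against 11% of features, and 3 had one under 0.01, against 3.5%. *DUSP5* had a difference of -0.30 (standard error 0.065, 95% interval -0.44 to -0.16, adjusted p = 0.087), *DUSP1* of -0.28 (0.069, 95% interval -0.43 to -0.13, adjusted p = 0.15) and *SPRY2* of -0.25 (0.067, 95% interval -0.39 to -0.10, adjusted p = 0.18). The same value, read the other way, is the serum effect in siLAPTM4B cells minus that in siControl cells, so for these 3 the estimate of the rise on serum withdrawal was smaller after knockdown, a difference that did not pass the test. The effects share arrays. The siControl arrays without serum enter both the knockdown value without serum and the serum value of siControl cells, and the siControl arrays with 10% FBS enter both the other knockdown value and that serum value.

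The likeness of the inhibitors to each other over the 12 arrays was measured as the root mean square difference of log2 values, each gene centred on its own mean. *SPRY2* and *SPRED1* were the closest pair (0.0546), followed by *DUSP7* and *SPRY4* (0.0607) and *DUSP6* and *SPRY2* (0.0755). *DUSP1* and *DUSP5* differed by 0.134, and *DUSP1* and *SPRY4*, the farthest pair, by 0.538. These distances describe the same 12 arrays and also grow with the size of each gene's change.

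**Figure D4:**
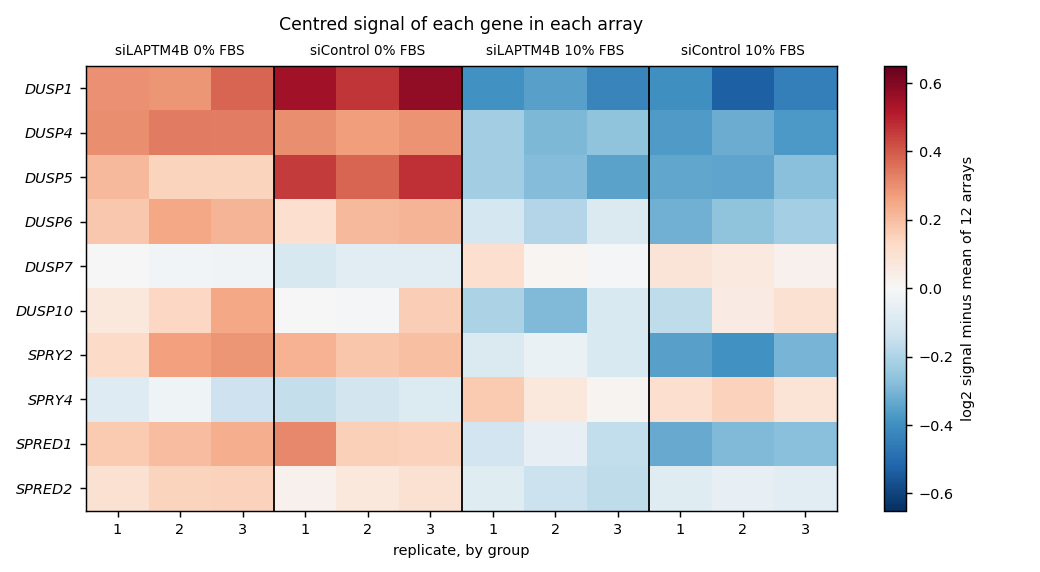
Log2 signal of each inhibitor minus its own mean over the 12 arrays (colour scale in log2 units), with genes as rows and arrays as columns grouped by siRNA and serum. *DUSP1* and *DUSP5* are highest in the siControl arrays without serum, and *SPRY4* and *DUSP7* are highest in the arrays with 10% FBS.

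By the same measure, the genes of the whole array nearest to *DUSP1* (whose own root mean square deviation was 0.43) were *TMEM171* (0.069), *SAV1*, a scaffold of the Hippo pathway (0.072), and *EPHA4*, an ephrin receptor (0.077). Nearest to *DUSP5* (0.32) were *C14orf132* (0.054), *CNTNAP4* (0.060) and *CHST11*, a chondroitin sulfotransferase (0.061). Nearest to *DUSP4* (0.31) were *RAP2A*, a RAS-related GTPase (0.036), *CADM4*, a cell adhesion molecule (0.041), and *KLF4*, a transcription factor (0.041).

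Some of the other phosphatase and Sprouty genes were called, counts to be read beside the share of all features called. On serum withdrawal that share was 20.7% in siLAPTM4B cells and 26% in siControl cells. After knockdown it was 2.33% without serum and 4.08% with 10% FBS. Of 4 other MAP kinase phosphatases, on serum withdrawal 1 fell in siLAPTM4B cells, 1 rose and 1 fell in siControl cells, and 1 was lower after knockdown in each medium. *DUSP8* rose on serum withdrawal in siControl cells (log2 fold change 0.27, adjusted p = 0.0017). *DUSP9*, a cytoplasmic ERK phosphatase, fell by 0.67 in siLAPTM4B cells (adjusted p = 1.5e-05) and by 0.74 in siControl cells (adjusted p = 0.00017). *DUSP16*, which acts on JNK and p38, was lower after knockdown in both media, by a log2 fold change of -0.30 without serum (adjusted p = 0.016) and of -0.31 in medium with 10% FBS (adjusted p = 0.0091). Of 3 other Sprouty and SPRED genes, 2 rose on serum withdrawal in siLAPTM4B cells and 1 in siControl cells. *SPRY1* rose on serum withdrawal by 0.37 in siLAPTM4B cells and by 0.48 in siControl cells, *SPRY3* by 0.24 in siLAPTM4B cells, and *SPRY1* was 0.20 higher after knockdown with 10% FBS (adjusted p = 0.038).

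Genes that ERK switches on moved with serum as well. On serum withdrawal 10 of 21 rose and 2 fell in siLAPTM4B cells, and 12 of 21 rose and 3 fell in siControl cells. Over all features the shares called were 20.7% and 26% in these cells, and after knockdown 2.33% without serum and 4.08% with 10% FBS. *FOS*, a subunit of AP-1, rose by 0.79 in siLAPTM4B cells and by 1.70 in siControl cells, and *MMP1*, a collagenase, rose by 0.69 and 1.32 in these cells. *EPHA4* (0.76 and 1.01), *EGR1* (0.38 and 0.86) and *KCNN4* (0.64 and 0.65) also rose in both. Those that fell were *IER3* (-0.20) and *SLC20A1* (-0.17) in siLAPTM4B cells, and *FOSL1* (-0.24) and the ETS factors *ETV4* (-0.19) and *ETV5* (-0.16) in siControl cells. After knockdown without serum 3 of the 21 were lower and 0 higher, namely *EGR1* (-0.67), *FOS* (-0.62) and the cytokine gene *LIF* (-0.35). With 10% FBS 2 were higher and 0 lower, *MMP1* (0.82) and the ephrin receptor *EPHA2* (0.21).

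Of 14 genes of the RAS, RAF, MEK and ERK core, 1 rose and 1 fell on serum withdrawal in siLAPTM4B cells, and 2 rose and 4 fell in siControl cells. Over all features the shares called were 20.7% and 26% in these cells, which also stand beside the kinase counts below. *MAP2K1*, which encodes MEK1, rose by 0.25 in siLAPTM4B cells and by 0.29 in siControl cells, and *SOS1*, which loads RAS with GTP, fell by 0.20 and 0.26 in these cells. In siControl cells *GAB1* also rose (0.26), and *KSR1* (-0.23), *ARAF* (-0.22) and *MAPK3* (-0.16), which encodes ERK1, fell. The docking protein gene *GAB1* was lower after knockdown without serum (-0.46) and with 10% FBS (-0.30). Of 9 JNK and p38 pathway kinases, 3 rose and 2 fell on serum withdrawal in siLAPTM4B cells, and 2 rose and 0 fell in siControl cells. *MAPK10* (JNK3) rose by 0.43 in siLAPTM4B cells and by 0.80 in siControl cells and was lower after knockdown without serum (-0.37). *MAP2K3*, a kinase that activates p38, rose by 0.21 in siLAPTM4B cells and by 0.25 in siControl cells. In siLAPTM4B cells the p38 gene *MAPK11* also rose (0.19), and *MAP2K6*, another activator of p38, fell (-0.34). *MAPK13*, a p38 kinase, fell by 0.42 on serum withdrawal in siLAPTM4B cells and was 0.36 higher after knockdown with 10% FBS.

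Of 12 other inhibitors of receptor and RAS signalling, 4 rose and 1 fell on serum withdrawal in siLAPTM4B cells, and 5 rose and 3 fell in siControl cells. Over all features the shares called were 20.7% and 26% in these cells, which also stand beside the counts of promoter-binding factors below. *IL17RD*, an inhibitor of FGF receptor and ERK signalling, was the one of the 12 called in all 4 comparisons of 2 groups, higher after knockdown by 0.33 without serum (standard error 0.041, adjusted p = 0.0061) and by 0.61 in 10% FBS (standard error 0.045, adjusted p = 0.00056), and higher on serum withdrawal in siLAPTM4B cells (0.44) and siControl cells (0.72). *LRIG1*, an inhibitor of EGF receptors, rose on serum withdrawal by 0.66 in siLAPTM4B cells and by 0.67 in siControl cells, and *SOCS3* fell by 0.30 and by 0.51 in these cells. *TOB1* (0.65 and 0.77) and *RASA2* (0.29 and 0.36) rose in both, and in siControl cells *ERRFI1* rose (0.17) and *CBLB* (-0.31) and *RASAL2* (-0.14) fell. The ubiquitin ligase gene *CBLB* was lower after knockdown with 10% FBS (-0.20). Of 9 factors that bind promoters downstream of MAP kinases, 2 rose and 0 fell on serum withdrawal in siLAPTM4B cells, and 4 rose and 1 fell in siControl cells. *ATF4* rose by 0.20 in siLAPTM4B cells and by 0.21 in siControl cells, and in siControl cells *ATF2* (0.19) and *ETS2* (0.18) rose and *ELK1* (-0.21) fell. *ETS1* rose by 0.54 in siLAPTM4B cells and by 0.60 in siControl cells, and was 0.22 higher after knockdown with 10% FBS.

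Some markers of cell type moved with serum too. Under each siRNA 1 of 6 epithelial markers rose and 1 fell, and 1 of 6 fibroblast markers rose and 2 fell. Of 5 leukocyte markers 0 rose and 2 fell. Over all features the shares called were 20.7% in siLAPTM4B cells and 26% in siControl cells. *CDH1*, *KRT8*, *KRT18*, *KRT19*, *COL1A1*, *COL1A2*, *DCN*, *PTPRC*, *CD3E* and *ITGAM* were not called under either siRNA. On serum withdrawal *EPCAM* rose by 0.79 in siLAPTM4B cells and by 1.09 in siControl cells, and *KRT7* had log2 fold changes of -1.90 and -1.63 in these cells. The fibroblast-associated genes *LUM* (-1.85 and -1.87) and *PDGFRB* (-1.23 and -1.19) fell, and *PDGFRA* rose (0.47 and 0.40). Of the leukocyte markers *CD14* (-0.32 and -0.35) and *CD68* (-0.62 and -0.52) fell. The mean log2 signal of the 6 epithelial markers was 9.71 to 9.74 in siLAPTM4B and 9.70 to 9.74 in siControl arrays without serum, and 9.86 to 9.92 in siLAPTM4B and 9.76 to 9.82 in siControl arrays with 10% FBS. That of the 6 fibroblast markers was 7.37 to 7.44, 7.46 to 7.48, 7.83 to 7.87 and 7.91 to 7.99, and that of the 5 leukocyte markers 7.24 to 7.32, 7.19 to 7.23, 7.39 to 7.48 and 7.35 to 7.44, in the same order of groups. After knockdown *KRT7* (-0.37 without serum), *LUM* (-0.50 without serum and -0.52 with 10% FBS) and *PDGFRB* (-0.39 and -0.35) were lower and *EPCAM* was higher with 10% FBS (0.51). No other marker was called after knockdown, where 2.33% of all features were called without serum and 4.08% with 10% FBS. Whether any of these shifts has a part in the values of the inhibitors was not tested.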

How the data were processed

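Total RNA of Calu-6 cells was profiled on 12 arrays. The authors deposited log2 values from RMA, which corrects background, equalizes the arrays by quantiles and summarizes probes, run in BRB-ArrayTools v 4.3.0. RMA forces the arrays to 1 distribution, so a shift of most genes would not be seen. The probe set level and annotation version are not given in the sources used here. Of 33252 features, 19460 carried 1 gene symbol in the platform annotation, 1754 several and 12038 none, and 0 columns were unmapped. The authors' selection threshold was an unadjusted p under 0.01.

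siLAPTM4B was compared with siControl in each medium, and 0% FBS with 10% FBS under each siRNA, by fits of 6 arrays in limma 3.58.1 (R 4.3.3), and the interaction by a fit of 12, with Benjamini-Hochberg adjustment over the 19460 features and calls at an adjusted p under 0.05. The fit was also run on simulated normal values, drawn independently for each array. They lack the correlations of same-numbered arrays given below, and no result here rests on them. Alternatives were leaving out each array, a replicate block, all features, dim features left out, an intensity trend with robust prior variance, Student's t-test of the statistics section (the methods' t-test), a fit of all 12 arrays, median centring and the unadjusted threshold. The authors' account of the arrays names no test for their selection, so this t-test need not be the one they used.

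Deviations of same-numbered arrays from their group means correlated by 0.37, 0.13 and 0.2 between the siControl media. Arrays of unlike number were not correlated, so these values alone cannot tell whether the numbers pair the arrays. The reported fits used no replicate block. The members and the gene lists were chosen, from general knowledge, with earlier results of these data known. Named genes are the 10 inhibitors, *LAPTM4B*, up to 4 called genes per list and comparison by the size of the change, and the 3 nearest genes to each of the 3 inhibitors with the widest range. *FOSL1*, *ETV4*, *ETV5*, *IER3*, *SLC20A1*, *ARAF*, *MAPK3*, *MAPK11*, *ETS2*, *RASA2*, *ERRFI1* and *RASAL2* fall outside this rule or complete a small count and were named after their values were seen, and the values of named genes in other comparisons are given beside their calls.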

Additional observations from a re-analysis of the deposited data

Results flagged for a closer look

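Genes were flagged by limma's interaction test, the serum-free log2 fold change of knockdown minus the one with 10% FBS. It called 4 of the genes named here, and none of the 4 is among the 10 inhibitors. List genes were mostly named for being called in a comparison, and *LAPTM4B* is the siRNA's target. This count of 4 therefore cannot be read against the 0.262% of all features called. *FOS* differed by -0.90 (adjusted p = 0.0096), *MMP1* by -0.63 (adjusted p = 0.048) and *EGR1* by -0.48 (adjusted p = 0.042), all from the genes that ERK switches on. *LAPTM4B* itself differed by 0.33 (adjusted p = 0.035), the knockdown being smaller without serum.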

How the results depend on the processing

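Of 50 values of the inhibitors, 34 changed neither call nor direction under any alternative run. On serum withdrawal 7 to 9 were called in siLAPTM4B cells (8 in the reported fit) and 7 to 9 in siControl cells (9). For knockdown without serum, where 1 was called, leaving out each array gave 0 to 1, the replicate block 2, the trend with robust prior variance 2, the fit of 12 arrays 2, the unadjusted threshold 2, and limma over all features and the methods' t-test 0 (2 and 3 at an unadjusted p under 0.05). With 10% FBS, where 1 was called, the array-wise range was 0 to 1, the trend gave 3, 12 arrays 2, the unadjusted threshold 2, and all features and the methods' t-test 0 (3 and 4 at an unadjusted p under 0.05). The interaction had 2 calls with the trend (*DUSP5* and *SPRY2*), 3 at the unadjusted threshold and 0 otherwise. Over all features tested by limma, knockdown calls without serum numbered 454, and 27 by the methods' t-test and 1126 with the trend. With 10% FBS they numbered 793, 177 and 1686.

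The replicate block called *DUSP1* without serum (adjusted p = 0.047), as did the trend (0.0055) and 12 arrays (0.034), and it changed no other call of an inhibitor. Correlations of same-numbered arrays between the siRNAs were 0.39, 0.069 and 0.18 without serum and 0.37, 0.15 and -0.079 with 10% FBS. Between the siLAPTM4B media they were 0.32, 0.13 and -0.17. As between the siControl media, these values do not settle whether the numbers pair the arrays. The adjusted p of *DUSP5* without serum ran from 0.00040 to 0.12 over the alternatives, and that of *SPRY2* with 10% FBS from 0.00023 to 0.10. On serum withdrawal *DUSP7* (0.071) and *SPRED2* (0.079) in siControl cells lost their calls over all features, *DUSP7* also after median centring (0.076), and *DUSP10* in siLAPTM4B cells with the methods' t-test (0.061). *SPRY4* in siLAPTM4B cells was called with the trend (0.0017) and with 12 arrays (0.020).

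Uncalled values that changed sign did so when 1 array was left out, with log2 fold changes of -0.0039 to 0.075 for *SPRY2* and -0.030 to 0.051 for *SPRED1* (knockdown without serum), -0.058 to 0.0048 for *DUSP7* and -0.071 to 0.0031 for *SPRY4* (knockdown with 10% FBS), and -0.028 to 0.10 for *DUSP10* (serum withdrawal in siControl cells). The cause was not tested. Another feature per gene could not be tried, since each inhibitor has 1.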
